A study of Mus musculus with 12 samples.

Results

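The comparison set the hippocampus of 3 mice taken at circadian time (CT) 6, the middle of the subjective day, against that of 3 mice taken at CT0, its dawn. These 6 arrays, of 12 in the series, were taken by their labelled circadian time, and the comparison was chosen with earlier results of these data known. All mice were wild-type adult males kept in constant darkness, so that no light cue marked the hour. The CT6 mice had been in the dark for 42 hours and the CT0 mice for 36 hours, so circadian time and hours in darkness cannot be told apart. The other 6 mice, 3 at CT12 and 3 at CT18, entered the estimate of the spread and a second comparison described last. Total RNA of 1 mouse was labelled with Cy3 and hybridised to each 1-colour Agilent array. A level below is log2 of the processed spot intensity minus the array's 75th percentile, so that a level of 0 means a probe as bright as that percentile, and a difference is a CT6 level minus a CT0 level. Levels of different probes cannot be set against each other, because probes differ in brightness.

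The circadian clock of mammalian cells is a feedback loop of transcription. BMAL1 (gene Arntl) pairs with CLOCK or NPAS2 and binds E-box sequences, switching on the Per and Cry repressors, the nuclear receptors Nr1d1 and Nr1d2 (REV-ERB) and output genes such as Dbp and Ciart; the repressor proteins then shut off BMAL1 and CLOCK. The loop runs in most tissues, the hippocampus included, where it is set by the suprachiasmatic nucleus and by daily changes in hormones, feeding and body temperature.

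Of the non-control spots on each of the 6 arrays, between 62.2% and 77.1% lay well above background. The highest share was on the array of CT0 mouse 3, on which 5909 probes were well above background that were so on no other array of the 12, against 22 to 306 such probes on the others. None of the 5909 could pass the filter on dim probes, which asks for all 3 arrays of a circadian time. The array of CT0 mouse 1 had a brighter local background, a median of 100 in scanner units where the remaining 5 arrays had 26 to 37, and its quality report read as one to be evaluated. Each of the 3 slides carried 1 CT0 and 1 CT6 array, always at the same 2 positions, so the place of an array on its slide and its time cannot be told apart. Markers of the labelled tissue were well above background on all 6 arrays, among them Slc17a7, the vesicular glutamate transporter of excitatory neurons (levels 3.08, 3.19 and 3.22 at CT6, against 2.88, 3.07 and 2.97 at CT0), Wfs1 of CA1 pyramidal cells and Prox1 of dentate granule cells. Transcripts of the choroid plexus, the tissue that makes cerebrospinal fluid and lies beside the hippocampus, were high in CT6 mouse 7 and in CT0 mouse 1. Their median stood at 2.73 and 3.87 in those mice, and at -1.93 to -1.48 in the other 4, each relative to the gene's mean over the 6 arrays.

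No gene passed the test between CT6 and CT0. Of 24087 genes tested with limma, 0 (0%) passed the Benjamini-Hochberg threshold of 0.05, and the lowest adjusted p, 0.277, was that of Nr1d1. An unadjusted p under 0.05 was found for 589 genes, 2.45% of those tested, of which 218 were higher and 371 lower at CT6. All 3 CT6 levels lay above all 3 CT0 levels for 1434 genes (5.95%) and below them for 1222 (5.07%). The median difference over all genes was 0.0033. Weighting the arrays by their estimated quality gave 2 genes, Nr1d1 (difference 0.85, adjusted p = 0.0178 by limma) and H2bc6 (difference -0.97, adjusted p = 0.0322), although the estimation of the weights stopped before it converged. With slide as a block the lowest adjusted p was 0.0581 and 0 genes passed. Without CT0 mouse 3, 0 genes passed and 471 had an unadjusted p under 0.05. Without CT12 mouse 11, an array that stood apart from the rest, 0 passed and 1207 did so unadjusted. All differences described below for single genes are therefore measured values that did not pass the test between these 2 times.

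Among genes with a RefSeq symbol and groups that do not overlap, 2 clock repressors had the smallest p of those higher at CT6. The p of H2bc6, a histone gene lower at CT6, lay between theirs. Nr1d1, the REV-ERBα nuclear receptor that represses Arntl, had levels of 0.93, 1.10 and 1.09 at CT6, against 0.16, 0.26 and 0.16 at CT0. Its groups did not overlap, and its difference of 0.84 ± 0.11 (SE) corresponds to 1.80-fold higher intensity at CT6. Ciart, a repressor of the CLOCK-BMAL1 complex also known as Chrono, had levels of -2.68, -2.85 and -2.60 at CT6, against -3.5, -4.01 and -3.52 at CT0. Its CT6 levels too were all above its CT0 levels, the difference was 0.97 ± 0.15 (SE), or 1.95-fold, and the adjusted p was 0.514 (limma). Within the 3 slides the difference of Nr1d1 was 0.77, 0.84 and 0.93, and that of Ciart 0.82, 1.16 and 0.92. Left without CT0 mouse 3, the difference was 0.83 for Nr1d1 and 1.04 for Ciart.

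The bases just upstream of these 2 genes are shown because they hold the sequences through which CLOCK-BMAL1 is known to act. The stretches come from RefSeq on build GRCm38.p6, chr3:95882229-95882358 and chr11:98775378-98775477, both on the minus strand, and each ends at the base before the gene's start. Capitals mark CACGTG, the E-box, in Ciart and CACGTT, the E′-box, in Nr1d1, on either strand.
Ciart: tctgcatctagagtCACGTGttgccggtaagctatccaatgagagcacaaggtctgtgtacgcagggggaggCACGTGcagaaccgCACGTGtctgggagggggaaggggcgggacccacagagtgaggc
Nr1d1: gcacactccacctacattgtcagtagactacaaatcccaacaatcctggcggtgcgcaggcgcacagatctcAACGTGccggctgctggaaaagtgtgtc
Ciart held 3 E-boxes, whose first bases lay 44, 58 and 116 bases before the start, and Nr1d1 1 E′-box at 28 bases. Among all 32851 RefSeq promoters, 6.02% held an E-box and 3.85% an E′-box in the 250 bases before the start. A promoter was listed for 16 of the 20 genes that led the comparison. The E-box was found only in Ciart among these 16, and the E′-box only in Nr1d1. Clock genes outside the 16 held them too, whichever way their levels lay. The E-box was found in Cry1, which was lower at CT6, and in Per1, Bhlhe41 and Tef, whose groups overlapped, and the E′-box in Cry1, Cry2 and Rorb. The cAMP response element TGACGTCA (1.55% of all promoters) was found in Mir9-3hg, and no match was found among the 16 for the D-boxes TTATGTAA (0.819%) and TTACGTAA (0.113%) or for AGGTCA, a site bound by ROR and REV-ERB (14%). Nor was any found for the ER stress element (0.113%) or the heat shock element (0.466%). Both strands were searched, and a match is a match of letters only.

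Of the 10 core clock repressors, 7 had a difference above 0, beside 51.0% of all genes, and their median difference was 0.13, or 0.23 without CT0 mouse 3. The CT6 and CT0 levels did not overlap in 6 of them, 4 higher and 2 lower at CT6, where 5.95% and 5.07% of all genes did the same. Nr1d2, the second REV-ERB gene, was higher by 0.33 ± 0.14 (SE), with levels of 1.46, 1.37 and 1.5 at CT6, against 1.13, 1.06 and 1.15 at CT0. Cry2, one of both cryptochromes, had levels of 4.43, 4.5 and 4.45 at CT6, against 4.21, 4.42 and 4.32 at CT0, also without overlap, but its difference of 0.14 was small. The other cryptochrome, Cry1, went the other way, with levels of -4.92, -5.79 and -5.32 at CT6, against -4.85, -4.66 and -4.52 at CT0 and a difference of -0.67. Its probe was well above background in only 1 of the 3 CT6 mice, so the CT6 levels are near the limit of measurement. Per2, a period gene, had CT6 levels just below all CT0 levels, with a difference of -0.17 ± 0.12 (SE). Per1 and Per3 overlapped between the groups, with differences of 0.22 and 0.12. Bhlhe40 and Bhlhe41 (the DEC repressors) differed by 0.049 and -0.0062. The level of Bhlhe41 in CT0 mouse 3, -1.40, stood above those of the other 5 mice, and a second probe of Bhlhe41 gave a difference of 0.36.

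Among the 4 activators, Clock had the smallest p, 0.00345 unadjusted. Its levels were -0.24, -0.27 and -0.23 at CT6, against 0.015, 0.10 and -0.00047 at CT0. They did not overlap, and the difference was -0.29 ± 0.076 (SE), similar within each slide (-0.26, -0.37 and -0.23). Arntl, the partner of CLOCK, had a difference of -0.22 ± 0.11 (SE), but its levels overlapped, because CT0 mouse 1 (1.20) lay among the CT6 mice (1.24, 1.26 and 1.08). Npas2 and Arntl2, close relatives of Clock and Arntl, differed by 0.29 ± 0.63 (SE) and 0.15 ± 0.19 (SE). The 3 probes of Arntl2 ranged from -0.38 to 0.15.

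Dbp, whose protein activates genes through D-box sequences and which is itself a target of CLOCK-BMAL1, had levels of 5.04, 5.35 and 5.18 at CT6, against 4.54, 4.32 and 4.06 at CT0. The difference was 0.88 ± 0.17 (SE), or 1.84-fold, with no overlap. It was 0.76 without CT0 mouse 3, and a second Dbp probe gave 0.97. Within slides it ranged between 0.50 and 1.12, the lowest value being on the slide of CT0 mouse 1. Nfil3, which represses at the same D-boxes, differed in the opposite direction, with levels of 0.48, 0.31 and 0.31 at CT6, against 0.61, 0.81 and 1.10 at CT0 and a difference of -0.47 ± 0.20 (SE). Tef and Hlf, the 2 relatives of Dbp, differed by -0.013 and 0.074, within the spread between mice. The groups overlapped in Rora and Rorb, activators at the sites where REV-ERB represses, which differed by 0.088 ± 0.35 (SE) and 0.17 ± 0.21 (SE). These errors were estimated over all 4 times, and the spread of Rora was widest at CT12 (0.80, SD, n = 3).

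**Figure D1:**
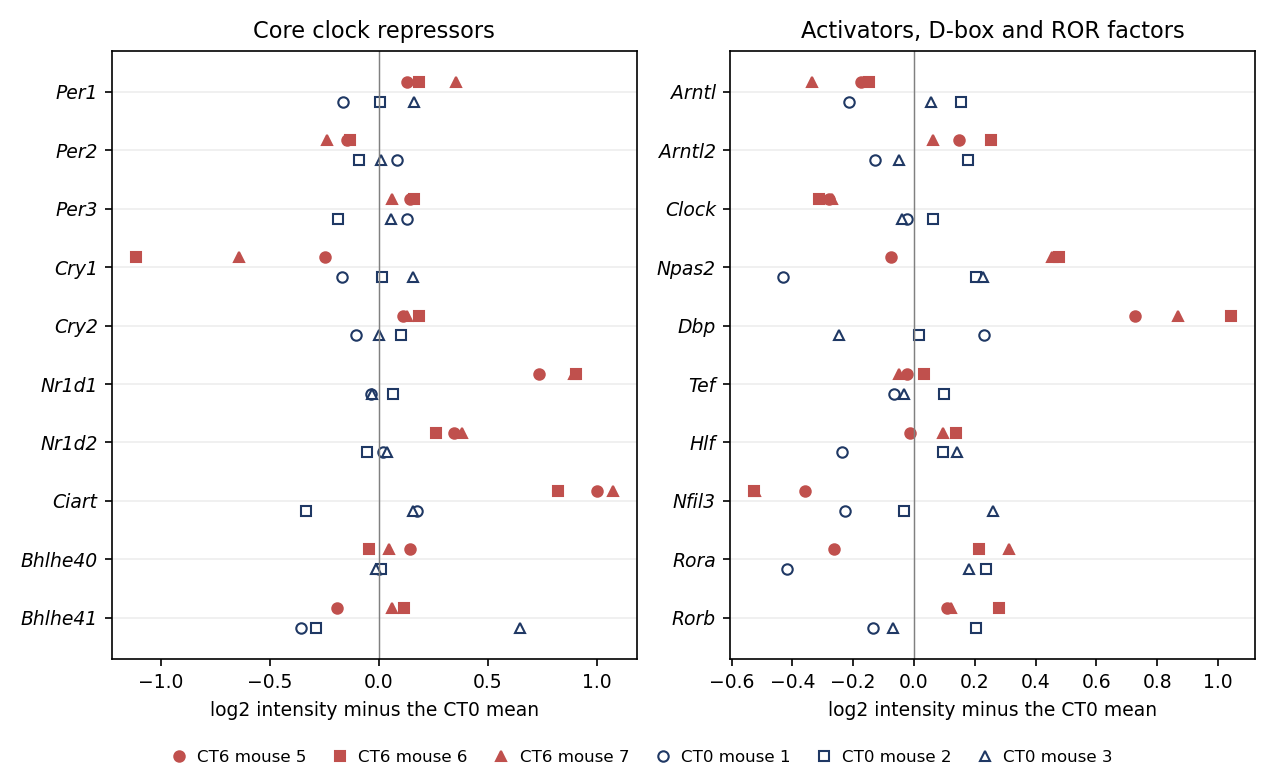
Levels of the core clock repressors (left) and of the activators, D-box and ROR factors (right), 1 row per gene. The horizontal axis is the level in log2 units minus the gene's CT0 mean, filled symbols are the 3 CT6 mice, open symbols the 3 CT0 mice, and the shape marks the slide. Nr1d1, Nr1d2, Ciart and Dbp lie to the right at CT6 in all mice, and Cry1, Clock and Nfil3 to the left.

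The other genes with the smallest p among those higher at CT6 were Gpr160, Mir9-3hg, Pla2g4e, Lrrc29, Cirbp, Map3k9 and 1500004A13Rik, whose differences ran from 0.48 (Lrrc29) to 0.83 (Pla2g4e). They were picked for a small p and for groups that do not overlap, so neither is a finding about them. Pla2g4e, a cytosolic phospholipase A2, had levels of -1.27, -1.44 and -1.38 at CT6, against -2.34, -2.0 and -2.24 at CT0. Gpr160, an orphan G protein-coupled receptor, had levels of -3.38, -3.66 and -3.49 at CT6, against -4.16, -4.11 and -4.10 at CT0. Mir9-3hg, the host transcript of a miR-9 gene, had CT0 levels that lay close together, with of 1.26, 1.27 and 1.17 at CT6, against 0.68, 0.72 and 0.70 at CT0. Lrrc29 had levels of -2.17, -2.45 and -2.38 at CT6, against -2.86, -2.66 and -2.93 at CT0. All 7 stayed above 0 in each of the 25 alternative settings tried. The 3 probes of Map3k9, a kinase upstream of the JNK pathway, did not give 1 answer, with differences from -0.046 to 0.68.

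The 10 genes with the smallest p among those lower at CT6 held 4 histone genes, H2bc6, H2bc4, H2bc14 and H3c15. The other 6 were Gm6277, Foxs1, Ptgr1, 6720489N17Rik, Noxred1 and Frmd7. H2bc6, an H2B histone of the large histone cluster, had levels of -0.95, -0.85 and -0.90 at CT6, against -0.095, 0.10 and 0.19 at CT0, a difference of -0.96 ± 0.14 (SE) or 1.95-fold lower, and an adjusted p of 0.514 (limma). Foxs1, a forkhead transcription factor, had levels of -2.33, -2.42 and -2.47 at CT6, against -1.81, -1.91 and -1.39 at CT0. Its difference of -0.70 was -0.54 without CT0 mouse 3, the mouse with its highest level. Ptgr1, a reductase that inactivates leukotrienes and prostaglandins, was tightly grouped at CT0, with levels of -2.5, -2.32 and -2.61 at CT6, against -1.91, -1.89 and -1.92 at CT0. Noxred1 had levels of -1.78, -1.74 and -1.61 at CT6, against -0.98, -1.14 and -0.90 at CT0, also with a clear gap between the groups. The probe of Gm6277 was not well above background in any CT6 mouse and was so in all 3 CT0 mice. Its measured difference ran from -0.96 to -0.13 over the 24 alternative settings that measured it. Its CT0 mean gave a bound of at least 1.46-fold lower at CT6, which does not allow for the spread between mice. For this bound a dim array counted with the lowest signal found among its probes above background, or with the probe's signal there if higher. The measured means of Gm6277 were -5.71 ± 0.17 at CT6 and -4.90 ± 0.11 at CT0 (SD, n = 3 each). All 20 leading genes kept their sign without CT0 mouse 3, with sizes from 0.43 (Lrrc29) upward among those higher at CT6.

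**Figure D2:**
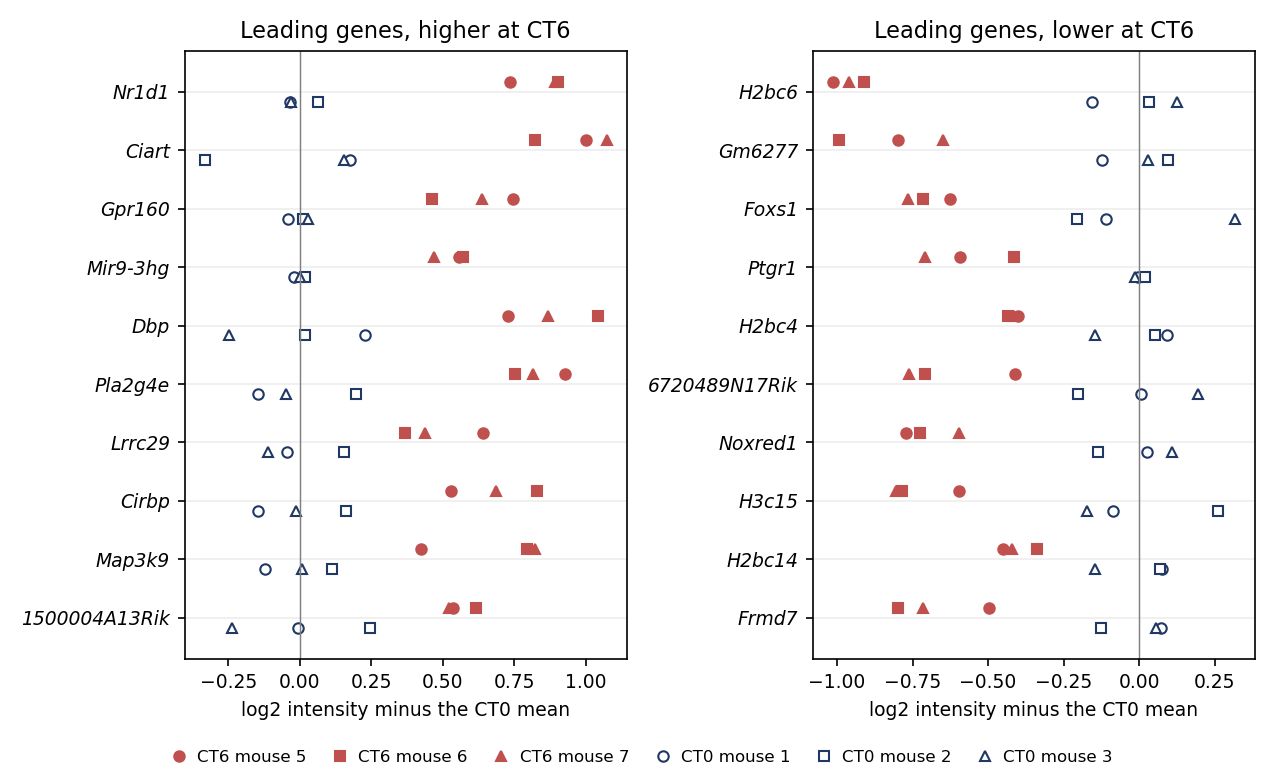
The 10 genes higher (left) and the 10 lower (right) at CT6 with the smallest p among genes with a RefSeq symbol and groups that do not overlap. The horizontal axis is the level in log2 units minus the gene's CT0 mean, filled symbols are CT6 mice, open symbols CT0 mice, and the shape marks the slide; none passed the adjusted test.

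Histone genes as a list lay lower at CT6. Of 12 replication-dependent histones measured, whose transcripts serve the packing of new DNA and end in a stem-loop in place of a poly(A) tail, 11 had a difference below 0 (all genes: 49.0%). In 5 the CT6 levels were all below the CT0 levels and in 0 above, beside 5.07% and 5.95% of all genes. The median was -0.26, against 0.0033 over all genes, -0.24 without CT0 mouse 3, and within slides -0.21, -0.41 and -0.23. H2bc4, another H2B gene, had levels of 3.59, 3.56 and 3.58 at CT6, against 4.08, 4.05 and 3.85 at CT0 and a difference of -0.42 ± 0.09 (SE). H2aw and H4c9 were lower without overlap too, with differences of -0.26 ± 0.15 (SE) and -0.35 ± 0.22 (SE), and H3c4 alone had a difference above 0, 0.04. Histone genes of a class are nearly identical in sequence, so a probe may also pick up its neighbours' transcripts, and the genes are uncertain as separate measurements.

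Of the genes known to follow body temperature, the 4 cold-inducible ones lay above 0, beside 51.0% of all genes. Most of the heat shock list lay below 0. Cirbp and Rbm3 code for RNA-binding proteins induced by mild cold. Cirbp had levels of 3.79, 4.09 and 3.95 at CT6, against 3.12, 3.42 and 3.25 at CT0, a difference of 0.68 ± 0.16 (SE) that was nearly the same in each slide (0.68, 0.67 and 0.70). Rbm3 had levels of 3.54, 3.59 and 3.59 at CT6, against 3.39, 3.04 and 3.11 at CT0 and a difference of 0.39 ± 0.15 (SE), though its 3 probes ranged from -0.50 to 0.41. The other 2 members, Rtn3 and Srsf5, differed by 0.078 and 0.076, and their groups overlapped. Of 23 heat shock proteins and their regulators, chaperones that are induced by warmth and misfolded protein, 18 lay below 0, beside 49.0% of all genes. Their median was -0.13, and within slides -0.00095, -0.13 and -0.12. Chordc1, a co-chaperone of HSP90, had levels of 1.76, 1.80 and 1.69 at CT6, against 2.07, 2.15 and 2.10 at CT0. Cryab, a small heat shock protein, had levels of 4.16, 4.06 and 4.02 at CT6, against 4.56, 4.57 and 4.40 at CT0. Both were lower without overlap (-0.36 and -0.43), as was Fkbp4 (-0.29 ± 0.22 (SE)), while Hspa4 was higher without overlap (0.25 ± 0.13 (SE)), with its 3 probes ranging from -0.38 to 0.25. Over all genes 5.07% were lower and 5.95% higher without overlap. Chordc1 and Cryab were the 2 members with an unadjusted p under 0.05 (0.00375 and 0.00645 by limma). Of all genes 1.54% were lower and 0.905% higher at that threshold.

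No chaperone gene of the endoplasmic reticulum (ER) passed the test, and 7 of the 8 whose groups did not overlap had lower levels at CT6. These proteins fold secreted and membrane proteins and are raised by the unfolded protein response. Of 30 genes of this list, 20 lay below 0, 7 were lower and 1 (Dnajb9, 0.089) higher without overlap, beside 49.0% of all genes below 0, 5.07% lower and 5.95% higher without overlap. An unadjusted p under 0.05 was found for 6, all lower, beside 1.54% of all genes in that direction and 0.905% in the other. The list's median was -0.10, also -0.10 without CT0 mouse 3. Hspa5, the main ER chaperone (BiP), had levels of 3.99, 4.12 and 4.07 at CT6, against 4.66, 4.47 and 4.27 at CT0 and a difference of -0.40 ± 0.12 (SE), or 1.32-fold lower. Sdf2l1, an ER co-chaperone, had levels of -0.76, -0.67 and -0.61 at CT6, against 0.17, -0.25 and -0.40 at CT0, where the highest value by far was that of CT0 mouse 1. The difference of Sdf2l1 within slides was -0.92, -0.42 and -0.21, and that of Hspa5 -0.66, -0.35 and -0.20, in both cases largest on the slide of CT0 mouse 1. Pdia3 and Pdia6, protein disulfide isomerases, differed by -0.29 ± 0.093 (SE) and -0.28 ± 0.15 (SE), Hsp90b1, the ER form of HSP90, by -0.26 ± 0.088 (SE), and Calr (calreticulin) by -0.30 ± 0.11 (SE), all without overlap. The sensors and transcription factors of the response showed no such gap, with Xbp1 at -0.13 ± 0.13 (SE), Atf6 at -0.072 ± 0.10 (SE), Atf4 at -0.11 ± 0.20 (SE) and Ddit3 at 0.035 ± 0.078 (SE).

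The stretch before the start of Hspa5 is shown because it holds the ER stress element, which pairs CCAAT with CCACG across a gap of 9 bases and is known to be bound by ATF6. It comes from RefSeq on build GRCm38.p6, chr2:34771990-34772089 on the plus strand, and ends at the base before the start; capitals mark the element.
Hspa5: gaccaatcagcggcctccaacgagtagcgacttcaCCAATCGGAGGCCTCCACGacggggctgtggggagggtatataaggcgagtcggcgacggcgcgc
The element began 65 bases before the start of Hspa5, and Hsp90b1 had 2 matches. Of the ER chaperone list, the search covered only Sdf2l1, Hspa5, Pdia3 and Hsp90b1. The rest of that list, Calr and Pdia6 among them, was not searched for the element. No other gene of the clock, chaperone and leading sets that was searched held the element in this window.

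Genes of cholesterol synthesis and uptake lay slightly higher at CT6. Of 23, 20 had a difference above 0, with a median of 0.13, and 5 were higher without overlap against 0 lower. Over all genes 51.0% lay above 0, 5.95% were higher and 5.07% lower without overlap. Insig1, which holds back the pathway's activator, had levels of -0.32, -0.37 and -0.42 at CT6, against -0.78, -0.54 and -0.73 at CT0 and a difference of 0.32 ± 0.19 (SE). Nsdhl, Acat2 and Fdps, enzymes of the pathway, were higher without overlap as well, with differences of 0.17 ± 0.13 (SE), 0.15 ± 0.14 (SE) and 0.13 ± 0.14 (SE). Mvd, the enzyme that makes isopentenyl pyrophosphate, differed by 0.28 ± 0.14 (SE), with overlap.

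Among 34 immediate-early genes, which neurons switch on within minutes of activity, 23 lay below 0, beside 49.0% of all genes. Their median was -0.13. It was 0.11 without CT0 mouse 3, and 0.20, -0.036 and -0.37 within the slides, the last being the slide of that mouse, so the direction rested on it. Fos and Arc, the classical markers of neuronal activity, differed by -0.48 ± 0.59 (SE) and -0.67 ± 0.52 (SE). Fos levels overlapped, at -1.71, -2.07 and -0.93 at CT6, against -1.97, -1.70 and 0.40 at CT0, while those of Arc did not, at 3.46, 3.03 and 3.60 at CT6, against 3.64, 3.68 and 4.78 at CT0. Inhba, a subunit of activin, had levels of -0.38, -0.55 and -0.69 at CT6, against -0.31, -0.18 and -0.29 at CT0, without overlap. Maff, a small MAF transcription factor, was not well above background in any CT6 mouse and was so in 2 of 3 CT0 mice. A bound on its means, taken as for Gm6277 and over all 3 CT0 mice, was at least 1.44-fold lower at CT6. The measured means of Maff were -5.54 ± 0.33 at CT6 and -4.81 ± 0.24 at CT0 (SD, n = 3 each). Of 28 genes that respond to glucocorticoids, 11 lay above 0, beside 51.0% of all genes, and the list's median was -0.023. Its smallest p values belonged to Lcn2 (lipocalin 2), with a difference of -0.47 ± 0.18 (SE), and Hif3a, with one of 0.44 ± 0.23 (SE) and probes from -0.83 to 0.44. In the list of hypoxia and glycolysis the gene with the smallest p was P4ha1, a collagen prolyl hydroxylase, with levels of 0.22, 0.19 and 0.19 at CT6, against 0.59, 0.76 and 0.67 at CT0 and no overlap.

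Lists of signalling and synaptic genes had medians between 0.0082 and 0.089, against 0.0033 over all genes. Of 32 genes of cAMP, MAP kinase and CREB signalling, 25 lay above 0, beside 51.0% of all genes, with a median of only 0.036. Adcy8, a calmodulin-stimulated adenylyl cyclase, had the largest difference, 0.53 ± 0.20 (SE), with levels of -1.10, -0.79 and -0.83 at CT6, against -1.90, -1.29 and -1.13 at CT0. Mapk3 (ERK1) differed by 0.22 ± 0.12 (SE). The 14 GABA receptor subunits had 13 members above 0 and a median of 0.073, which was 0.017 without CT0 mouse 1. Their largest difference was that of Gabra3, the α3 subunit, 0.39 ± 0.16 (SE), whose 2 probes gave -0.077 and 0.39. The 22 glutamate receptor subunits had a median of 0.089, with Grin1, the obligate NMDA receptor subunit, at 0.10 ± 0.12 (SE). Neuropeptides had a median of 0.048, and Trh, thyrotropin-releasing hormone, varied most between mice, with levels of -3.11, -0.0085 and -2.80 at CT6, against -4.15, -2.87 and -3.47 at CT0. The clock kinases and ubiquitin ligases had a median of 0.0082, and Gsk3b, which phosphorylates clock proteins, was the only 1 of 16 without overlap (0.19 ± 0.081 (SE)). Over all genes 5.95% were higher and 5.07% lower without overlap. Of 28 output genes the median was 0.055, with Usp2, a rhythmic deubiquitinase, at 0.27 ± 0.13 (SE) and Nampt, an enzyme of NAD synthesis, at -0.23 ± 0.087 (SE), both without overlap.

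Housekeeping lists gave the scale against which these values can be read. Medians were 0.034 for 30 cytosolic ribosomal proteins (26 above 0), 0.047 for 28 respiratory chain subunits (24) and 0.055 for 26 proteasome subunits (22). For 20 tRNA synthetases the median was 0.021, with 13 above 0. Of all genes 51.0% lay above 0. The 50 genes linked to intellectual disability had a median of 0.042, with 8 higher and 2 lower without overlap, beside 5.95% and 5.07% of all genes. Setd5, a chromatin regulator, and Slc6a8, the creatine transporter, had values of 0.28 ± 0.15 (SE) and 0.22 ± 0.12 (SE). Centring each array on its median in place of its 75th percentile moved the median of all genes to 0.18. The medians of the ER chaperones, the heat shock proteins and the immediate-early genes were then 0.069, 0.041 and 0.038, above 0, and relative to all genes -0.11, -0.13 and -0.14.

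**Figure D3:**
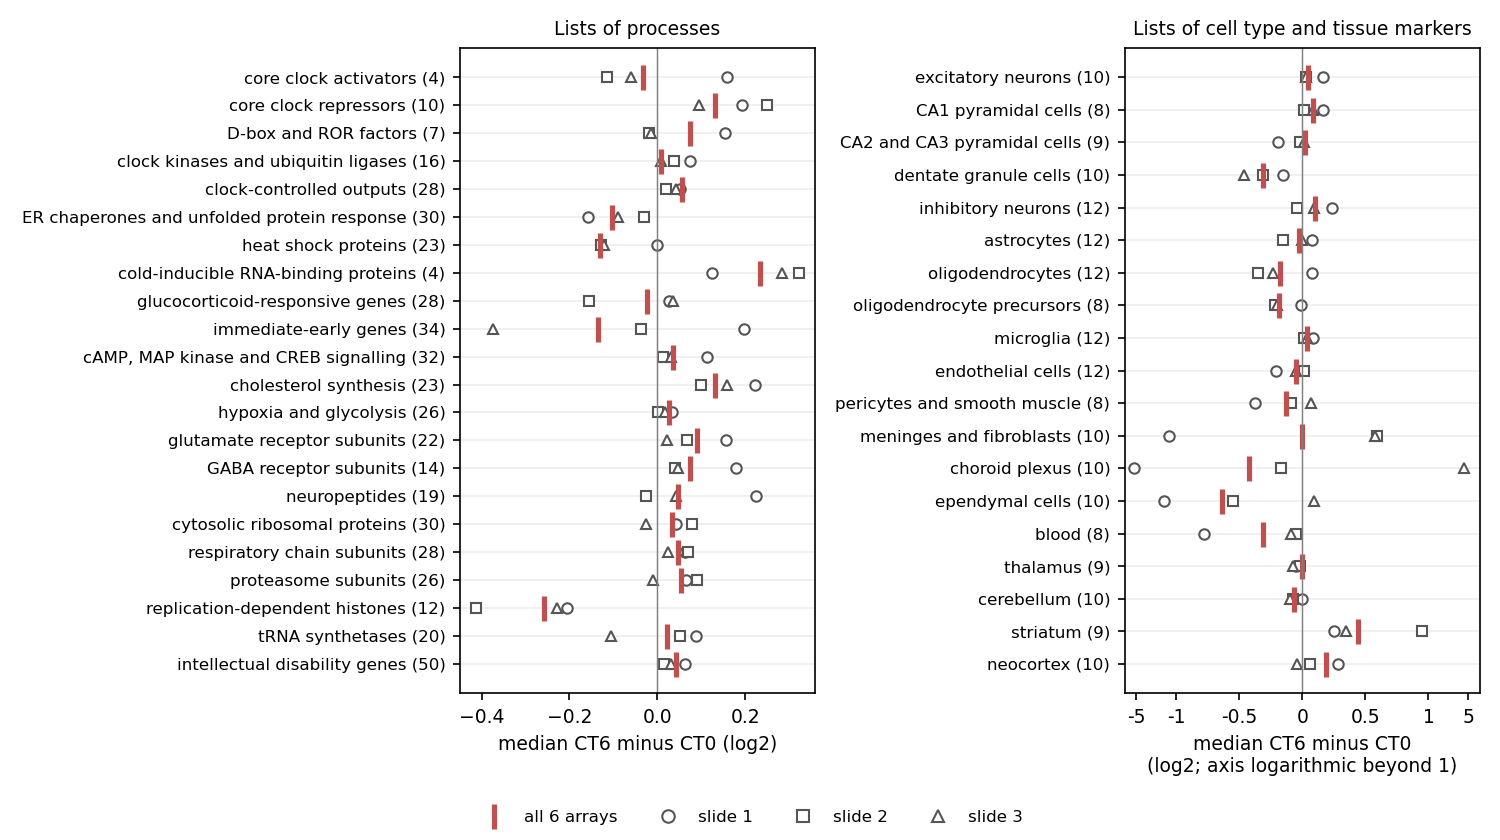
Median CT6 minus CT0 difference (log2) of each list of processes (left) and of cell type and tissue markers (right), with the number of measured genes in brackets; the right axis is logarithmic beyond 1. Red bars are the medians over all 6 arrays, and open symbols are the medians within each slide, that is 1 CT6 mouse minus 1 CT0 mouse; the slides of the histone list lie on 1 side of 0, and those of the choroid plexus list spread widest.

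Markers of other cell types also differed, and their part in the results above was not tested. In bulk tissue, fewer cells of a type and less RNA per cell cannot be told apart. Of 10 dentate granule cell markers, 9 lay below 0 and 6 were lower without overlap, beside 49.0% and 5.07% of all genes, with a median of -0.31. Their level relative to the mean over the 6 arrays was -0.0042, -0.12 and -0.35 at CT6, against 0.15, 0.19 and 0.082 at CT0. Prox1, which defines these cells, differed by -0.34 ± 0.18 (SE). All 12 oligodendrocyte markers lay below 0 with a median of -0.17, and 2 were lower without overlap. Within slides their median was 0.074, -0.35 and -0.24, above 0 on the slide of CT0 mouse 1. Ugt8a, an enzyme of myelin lipid synthesis, was at -0.46 ± 0.20 (SE). All 10 ependymal markers, those of the ciliated cells lining the ventricles, also lay below 0, with a median of -0.63 that was -0.18 without CT0 mouse 1. All 9 striatal markers lay above 0 with a median of 0.44, 0.12 without CT6 mouse 6. Adora2a, the adenosine receptor of striatal neurons, had levels of -3.38, -1.56 and -3.69 at CT6, against -3.88, -3.53 and -3.55 at CT0, highest in CT6 mouse 6. The choroid plexus list had a median of -0.43 and no member with an unadjusted p under 0.05, and each of both times had 1 mouse with high levels. Ttr, transthyretin, had levels of 0.35, -1.08 and 7.5 at CT6, against 8.20, -1.39 and -0.37 at CT0. Prlr and Otx2, a receptor and a homeobox factor of that tissue, differed by -0.64 ± 1.35 (SE) and -0.99 ± 2.19 (SE). Markers of vessel walls held the smallest p of these lists, with Kcnj8, a potassium channel of pericytes, at -0.48 ± 0.15 (SE) and the endothelial genes Pcdh12 and Cldn5 at -0.43 ± 0.17 (SE) and -0.29 ± 0.12 (SE), all without overlap. They were picked for a small p. Of 12 endothelial markers 9 lay below 0 and 2 were lower without overlap. Of 8 markers of pericytes and smooth muscle, 7 lay below 0 and 1 was lower without overlap. The median of these 8 within slides was -0.38, -0.093 and 0.065. Other lists had medians of -0.13 (pericytes and smooth muscle), -0.31 (blood), -0.049 (endothelial cells), -0.026 (astrocytes), 0.037 (microglia) and 0.081 (CA1 pyramidal cells).

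A second test asked whether the step from CT0 to CT6 differed from the step from CT12 to CT18, the end of the subjective day to the middle of the subjective night. By the labels the CT12 mice had spent 48 hours in darkness and the CT18 mice 30 hours. The difference between the 2 steps passed the test (limma, adjusted p under 0.05) for 55 genes, 0.228% of those tested, of which 14 were positive and 41 negative. The calls depended on the scaling and on single libraries. With each array centred on its median 2 genes passed, 1 positive (Ciart) and 1 negative, so the other genes named for this test lost the call there. Without the filter on dim probes 12 passed, and without CT0 mouse 1 and CT6 mouse 7 together 0 did, with 1637 at an unadjusted p under 0.05 (limma). The difference between the steps equals the levels of CT6 and CT12 set against those of CT0 and CT18, so genes with opposite steps have the best chance to pass. As the CT6 and CT12 mice are those with the longer time in darkness and the CT0 and CT18 mice those with the shorter, circadian time and hours in darkness cannot be told apart here either. The steps were of opposite sign in all 55. In 48 of the 55 the CT6 and CT0 levels did not overlap, beside 5.95% of all genes higher and 5.07% lower without overlap. The second test uses these same CT6 and CT0 arrays, so the count is not separate support. The clock and cold-inducible genes were on the positive side. Ciart had a difference between steps of 2.60 ± 0.21 (SE) with an adjusted p of 0.00482, and means at CT0, CT6, CT12 and CT18 of -3.68 ± 0.29, -2.71 ± 0.13, -1.82 ± 0.10 and -3.45 ± 0.14 (SD, n = 3 each). Nr1d1 (1.63 ± 0.15 (SE), adjusted p = 0.00801 by limma) was highest at CT6, with means of 0.20 ± 0.057, 1.04 ± 0.10, 0.71 ± 0.15 and -0.071 ± 0.12. Dbp (1.83 ± 0.24 (SE), 0.0218) and Cirbp (1.98 ± 0.23 (SE), 0.0128) were highest at CT12, as was Ciart. Clock, Arntl, Nr1d2 and Cry1 did not pass, with adjusted p of 0.142, 0.174, 0.107 and 0.994.

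On the negative side were 9 of the 30 ER chaperone genes, Sdf2l1, Hspa5, Pdia3, Hsp90b1, Calr, Manf, Pdia6, Hyou1 and Derl3. Hspa5 had means of 4.46 ± 0.19, 4.06 ± 0.064, 4.29 ± 0.12 and 5.39 ± 0.11 at CT0, CT6, CT12 and CT18 (SD, n = 3 each), with its lowest level at CT6 and its highest at CT18. Sdf2l1 followed the same order, with means of -0.16 ± 0.30, -0.68 ± 0.073, -0.40 ± 0.067 and 1.15 ± 0.15. The median CT18 minus CT12 difference of the list was 0.32, against 0.0039 over all genes. Histone genes that passed were H2bc6 and H2bc4 of the list and, outside it, H2bc14, H3c15 and H3c14. H2bc6 had means of 0.062 ± 0.14, -0.90 ± 0.051, -0.70 ± 0.25 and 0.35 ± 0.16, low at CT6 and CT12. The other genes named earlier that passed on this side were Foxs1, Ptgr1, Noxred1, Chordc1, Inhba and P4ha1, and Pla2g4e, Mir9-3hg, Lrrc29, Map3k9 and Rbm3 passed on the positive side. Named after their values were seen, Mkks (a chaperonin-like ciliopathy gene), Saysd1, Doc2b (a calcium sensor of vesicle release) and Scin (an actin-severing protein) also passed on this side, with differences between steps of -1.39, -1.47, -1.33 and -1.72. Ada, adenosine deaminase, passed on the positive side (1.73), though its CT6 and CT0 levels overlapped and most of its change lay between CT12 (-1.27) and CT18 (-2.83).

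With 1 library left out, the number of genes passing was 20 without CT0 mouse 3, 14 without CT0 mouse 1, 8 without CT6 mouse 6 and 1, Ciart, without CT6 mouse 7. It was 176 without CT12 mouse 11, whose levels over all genes correlated with those of each other array at 0.945 to 0.965, and all 55 genes were among those. The fit with slide as a block called 48 genes, and 41 of the 55 were among them. The genes named here that lost the call under the block were Calr, Hsp90b1, Manf, Pdia6, Foxs1, H3c14 and Rbm3, with adjusted p from 0.0555 to 0.0652 (limma).

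**Figure D4:**
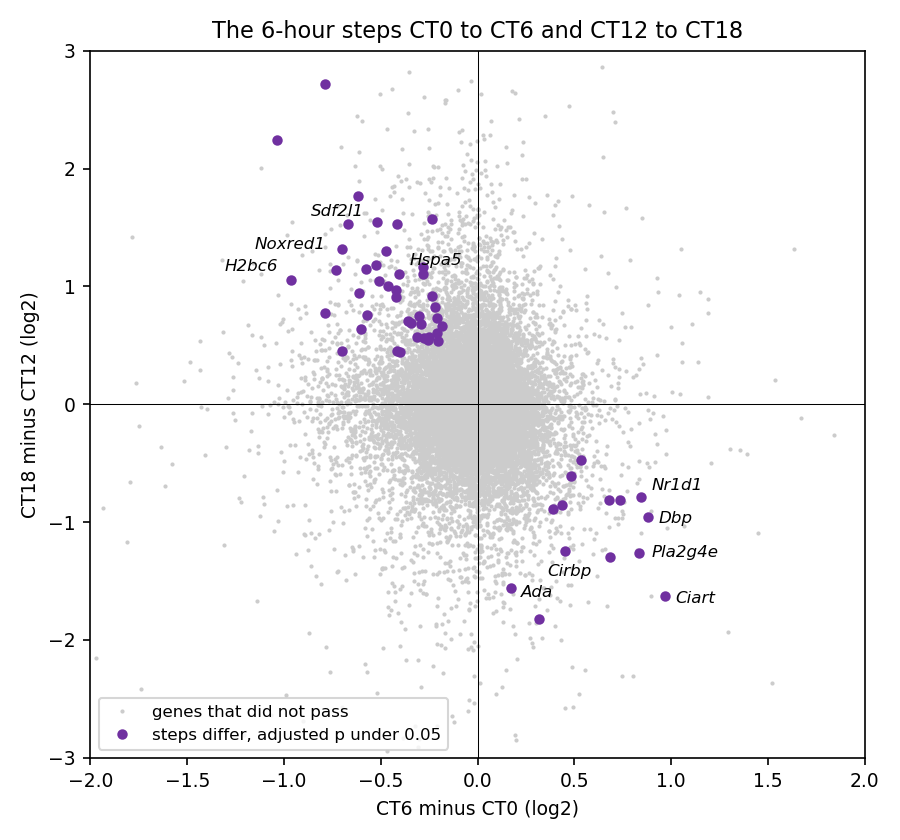
Each point is a gene, with its CT6 minus CT0 difference on the horizontal axis and its CT18 minus CT12 difference on the vertical axis, both in log2 units. The 55 genes whose steps differed by the adjusted test are in purple and lie in the upper left and lower right; 27 genes outside the axes, none of the 55, are not drawn.

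**Figure D5:**
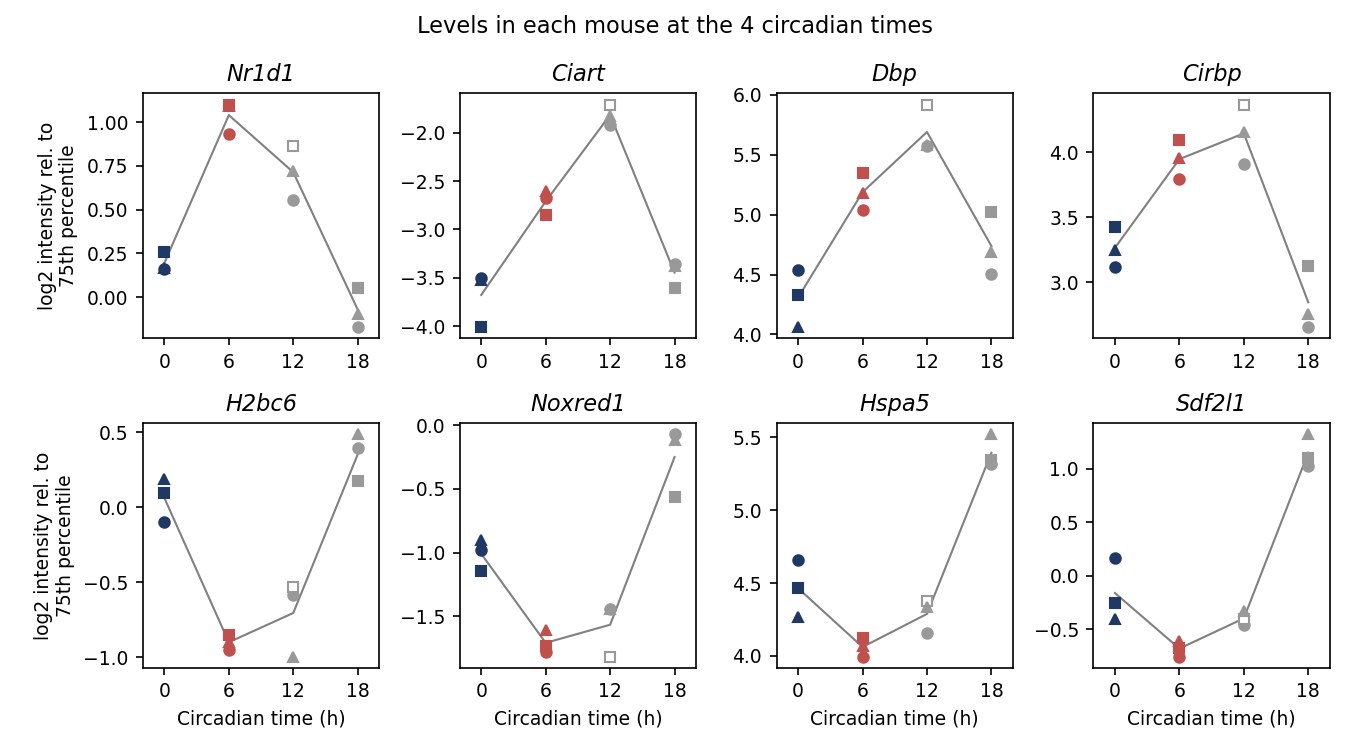
Levels (log2 units) of 8 genes in every mouse against circadian time in hours, with a line through the means. CT0 mice are blue, CT6 mice red, the others grey, the shape marks the slide, and the open symbol is CT12 mouse 11; Nr1d1, Ciart, Dbp and Cirbp are above their CT0 levels at CT6, and H2bc6, Noxred1, Hspa5 and Sdf2l1 below.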

How the data were processed

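Hippocampal RNA of 12 mice, 3 per circadian time, was measured on 1-colour arrays. The scanner images were read by Feature Extraction 10.7.3.1 (Agilent), per the file headers. The deposited processed signal is a background-subtracted intensity without scaling between arrays; the mean and background intensities are in the same deposited files. The deposited flags (other, 0 or 1) mark spots well above background, control and outlier spots. The authors' deposited value table holds log2 values with the same median, 5.36, and 75th percentile on every array; the step that made it is not given in the sources used here. Each of its columns correlated best with its own array, and it served as an alternative.

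Outlier spots were left out, spots of a probe averaged, and log2 values taken minus the 75th percentile over non-control probes. Of 55681 probes, 33966 were kept because all 3 arrays of a circadian time lay well above background, and each gene took its probe of highest mean, leaving 24087 genes (16096 with a symbol of the RefSeq table for GRCm38.p6; an accession named 26685 probes, a symbol 2538 and a synonym 474). limma 3.58.1 in R 4.3.3 fitted a mean per time over the 12 arrays, without a slide term, with the contrasts CT6 minus CT0 and that minus CT18 minus CT12, p-values adjusted by Benjamini-Hochberg over all genes. The procedure was tested on simulated data.

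Named were all measured members of 3 clock lists, the 10 genes with the smallest p in each direction among those with a RefSeq symbol and groups without overlap, the 4 members of each other process list with the smallest p (10 for intellectual disability), 3 per cell type list and the choroid plexus list. Other list members are named after their values were seen. The comparison, members and lists were chosen with earlier results of these data known. Alternatives were other scalings, background correction, the deposited table, filters, probe summaries, variance models, slide as a block, only the 6 arrays, and leaving out libraries. Precision is limited by 3 mice per time, and p-values measure the spread between these mice. A few list members are not reported here, though they count in their lists. Strain and exact age are not given in the sources used here.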

Additional observations from a re-analysis of the deposited data

Results flagged for a closer look

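The step from CT0 to CT6 differed from the step from CT12 to CT18 by the limma test (adjusted p under 0.05) for 23 of the genes named by rule. Positive differences between the steps, in log2 units, were 1.63 for Nr1d1, 2.60 for Ciart, 1.83 for Dbp, 1.0 for Mir9-3hg, 2.10 for Pla2g4e, 1.09 for Lrrc29, 1.98 for Cirbp, 1.49 for Map3k9 and 1.28 for Rbm3. Negative ones were -2.02 for H2bc6, -1.15 for Foxs1, -1.33 for Ptgr1, -0.86 for H2bc4, -2.01 for Noxred1, -1.87 for H3c15, -0.85 for H2bc14, -2.07 for Sdf2l1, -1.51 for Hspa5, -0.98 for Pdia3, -0.81 for Hsp90b1, -1.06 for Chordc1, -1.39 for Inhba and -1.77 for P4ha1. In each of these genes the 2 steps had opposite signs. The test of the difference draws on the same CT6 and CT0 arrays as the differences above.

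On the array of CT0 mouse 3, 5909 probes were well above background that were so on none of the other 11 arrays. The filter on dim probes asks for all 3 arrays of a circadian time, so by its rule none of them entered the main comparisons. The setting without that filter did not remove probes on this ground. Other probes of that array, kept by the filter, are not covered by this count.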

How the results depend on the processing

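The count of 0 genes between CT6 and CT0 was also 0 in 24 of 25 alternative settings, with 309 to 1285 genes at an unadjusted p under 0.05, and 2 with array quality weights (1693 unadjusted). The 20 leading genes kept their sign in every setting in which they were measured. Of 181 named genes, 169 did under median centring, 164 without CT0 mouse 1 and CT6 mouse 7, and 162, the fewest, without CT0 mouse 1. Of 41 list medians, 30 kept their sign under median centring and 31 without CT0 mouse 1. For the difference between the steps, 55 genes became 2 under median centring (1 positive and 1 negative), 12 without a filter on dim probes, 388 with array quality weights, 0 without CT0 mouse 1 and CT6 mouse 7 (1637 at an unadjusted p under 0.05), and 29 without CT0 mouse 3 and CT12 mouse 11. Leaving out 1 library at a time gave from 1 (without CT6 mouse 7) to 176 (without CT12 mouse 11). The other libraries that moved the count by over 1.5 times were CT0 mouse 1 (14), CT0 mouse 2 (15), CT0 mouse 3 (20), CT6 mouse 5 (24), CT6 mouse 6 (8), CT12 mouse 12 (155), CT18 mouse 14 (14), CT18 mouse 15 (33) and CT18 mouse 16 (4). The cause of these changes was not tested. The second test could not be run on only the 6 arrays. Mouse numbers are not shared between the times, so they pair no samples; arrays paired by slide, with slide as a block, gave 0 and 48 genes. With 3 mice per time and dim probes such as those of Cry1 and Gm6277 near background, small differences are not detectable.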
